A study of Drosophila melanogaster with 16 samples.

Results

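Among the sites bound in fly heads by the chromatin protein ROW were 348 regions on the heterochromatin contigs, the stretches of the dm3 assembly whose names end in Het. They are described here by the other proteins found there and by the promoter mark H3K4me3. Overlapping peaks of ROW, WOC, HP1c and HP1b were merged into 7897 regions, 5268 of which held a ROW peak. The 348 regions were selected on the presence of a ROW peak and on the contig name, so the presence of ROW is no finding here. Another 438 regions on the same contigs held no ROW peak. ROW regions of the 5 large arms (2L, 2R, 3L, 3R and X, 4715 regions) and of chromosome 4 (204 regions) served for comparison.

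Chromatin immunoprecipitation and sequencing had been done on whole heads of Drosophila melanogaster of 1 genotype, Actin-gal4/+ (W1118), labelled control. All antibodies thus share the Actin-gal4 driver, and no other genotype is compared. Of the 16 libraries, HP1b and IgG had 2 each and the other antibodies (ROW, WOC, HP1c, H3K4me3) had 3 each. The authors deposited 1 peak list per antibody with the replicates combined, so the spread between replicates and the depth of each library are unknown, and no IgG peaks were analysed here. Intervals and exact tests therefore treat regions as the units, cover counting error only, and say nothing of variation between flies. Whole heads mix many cell types, so peaks that share a position need not lie on the same DNA molecule or in the same cells. Age and sex of the flies are not given in the labels.

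Heterochromatin is the compact, repeat-rich part of the genome around centromeres, on the Y chromosome and on much of chromosome 4. Proteins of the HP1 family are best known for it, since the founding member binds methylated lysine 9 of histone H3. HP1c and HP1b are further family members that also occur in euchromatin. ROW and WOC are zinc-finger proteins that are known to form a complex with HP1c in Drosophila. H3K4me3 marks the start of active genes, and genes that lie in heterochromatin can be active.

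The contigs 2RHet, 3LHet and 3RHet held most of the ROW regions, with 143, 99 and 83. On 2LHet there were 17, on XHet 5 and on YHet 1. ROW was present in 46.1% of the 310 regions of 2RHet, 43.6% of the 227 regions of 3LHet and 39.9% of the 208 regions of 3RHet. The 348 regions contained 353 ROW peaks, 6.66% of the ROW list, and 5 regions contained 2 ROW peaks. One peak of each factor present was the usual content, in 330 of 348 regions (94.8%).

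Most of these regions also carried an HP1 protein, and the class with all 4 factors was the most frequent. HP1c, the partner of ROW and WOC, was present in 284 regions (81.6%, 95% Wilson interval 77.2 to 85.3), against 1932 of 4715 ROW regions of the large arms (40.98%, 39.6 to 42.4). Over all contigs 45.4% of ROW regions held HP1c. The odds ratio was 6.39 (95% interval 4.84 to 8.44, Fisher's exact test, two-sided, adjusted p = 3.8268e-50). HP1b was present in 218 regions on the Het contigs (62.6%, 57.4 to 67.6), against 1091 on the large arms (23.1%, 22.0 to 24.4), with 27.7% over all contigs. Here the odds ratio was 5.57 (4.44 to 6.99, Fisher's exact test, adjusted p = 3.611e-50). HP1c, HP1b or both were found in 295 of the 348 regions (84.8%) and in 2044 of the 4715 large-arm regions (43.4%). HP1 peaks were common on these contigs apart from ROW as well. The Het contigs held 14.3% of the HP1c list and 17.0% of the HP1b list, against 6.66% of the ROW list. Of the HP1c peaks there, 292 lay in regions with ROW and 318 in regions without it. For HP1b the counts were 221 and 205. Regions without ROW hold another factor by definition, so their shares were not compared.

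WOC differed less. It was present in 292 Het regions (83.9%, 79.7 to 87.4), against 3462 large-arm regions (73.4%, 72.1 to 74.7) and 74.4% of ROW regions over all contigs. The odds ratio was 1.89 (1.41 to 2.53, Fisher's exact test, adjusted p = 1.6373e-05). Among regions with H3K4me3 this comparison no longer passed (93.2% of 59 Het regions and 83.3% of 2384 large-arm regions, odds ratio 2.75, 0.99 to 7.62, exact test, adjusted p = 0.107). It also did not pass among regions with wide ROW peaks (odds ratio 2.64, adjusted p = 0.147, exact test). It passed in the complementary subsets, with an odds ratio of 2.65 among regions without H3K4me3 (adjusted p = 1.507e-10, exact test) and 2.80 among narrow ROW peaks (adjusted p = 6.9738e-11, exact test). The odds ratios of all 4 subsets were above the 1.89 of all regions.

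Against chromosome 4, the other heterochromatin-rich part of the assembly, the shares of HP1c and WOC over all ROW regions were close. HP1c was present in 81.6% of the Het regions and 85.3% of the chromosome 4 regions (odds ratio 0.765, 0.477 to 1.23, Fisher's exact test, adjusted p = 0.372). WOC was present in 83.9% of the Het regions and 80.9% of the chromosome 4 regions (odds ratio 1.23, 0.785 to 1.94, adjusted p = 0.445, exact test). The intervals still allow moderate differences in both directions. Among ROW peaks no wider than the list median WOC did pass, with 161 of 214 Het regions and 49 of 81 chromosome 4 regions (odds ratio 1.98, 1.15 to 3.41, exact test, adjusted p = 0.0228). HP1b passed the threshold, with 62.6% on the Het contigs and 72.1% on chromosome 4 (odds ratio 0.650, 0.447 to 0.946, Fisher's exact test, adjusted p = 0.0358). This call was lost under several other settings, among them leaving out 3LHet (odds ratio 0.776) or 3RHet (0.683), and the odds ratio was 1.16 in the same subset of narrow ROW peaks.

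**Figure D1:**
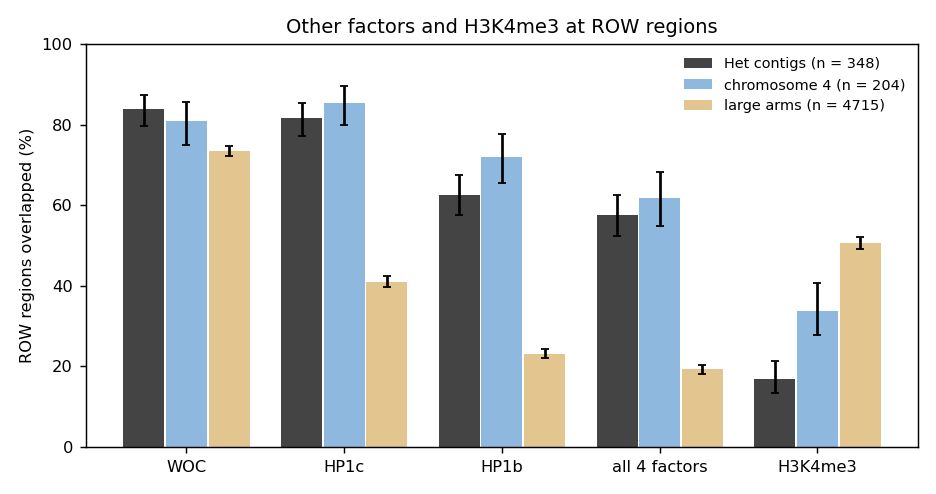
Share of ROW regions (%) that also held WOC, HP1c, HP1b, all 4 factors or H3K4me3, on the Het contigs, chromosome 4 and the large arms, with 95% Wilson intervals as error bars. The Het contigs lie near chromosome 4 for HP1c (81.6% and 85.3%) and below it for HP1b (62.6% and 72.1%). They have the lowest share with H3K4me3 (17.0%).

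The combinations were shifted as a whole. All 4 factors together made up 200 of the 348 regions (57.5%, 52.2 to 62.6), against 908 of 4715 on the large arms (19.3%, 18.2 to 20.4) and 23.4% of ROW regions over all contigs. The odds ratio was 5.67 (4.53 to 7.09, Fisher's exact test, adjusted p = 3.611e-50). Chromosome 4 had 126 of 204 (61.8%), with an odds ratio of 0.837 (0.588 to 1.19, Fisher's exact test, adjusted p = 0.38). Among narrow ROW peaks the direction turned, with 104 of 214 Het regions and 28 of 81 on chromosome 4 (odds ratio 1.79, 1.05 to 3.04, exact test, adjusted p = 0.0502). ROW, WOC and HP1c without HP1b made up 55 Het regions (15.8%), close to the 16.9% of the large arms. ROW with WOC and no HP1 protein is the most frequent class of the large arms, with 1677 regions (35.6%), yet it numbered 28 on the Het contigs (8.05%, 5.63 to 11.4). ROW by itself was found at 25 Het regions (7.18%, 4.91 to 10.4), against 994 on the large arms (21.1%). The rest of the Het regions held ROW with HP1c (22), ROW with WOC and HP1b (9), ROW with both HP1 proteins (7) and ROW with HP1b (2).

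On each of the contigs all 4 factors together were the most frequent class. They were present together in 13 of 17 regions on 2LHet (76.5%, 52.7 to 90.4), 89 of 143 on 2RHet (62.2%, 54.1 to 69.8), 48 of 99 on 3LHet (48.5%, 38.9 to 58.2) and 47 of 83 on 3RHet (56.6%, 45.9 to 66.8). XHet had 2 of 5, and the single YHet region had all 4. HP1b ranged most among the 3 larger contigs, from 52.5% on 3LHet to 69.9% on 2RHet, with intervals of 42.8 to 62.1 and 62.0 to 76.8 that only just meet. The differences between contigs were not tested.

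**Figure D2:**
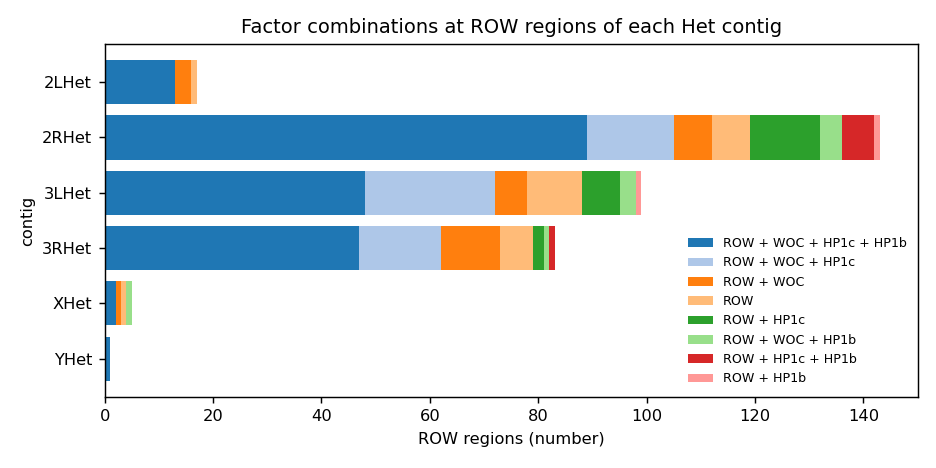
Number of ROW regions on each Het contig, split by which of WOC, HP1c and HP1b were present with ROW. All 4 factors together are the largest class on 2LHet, 2RHet, 3LHet and 3RHet (13, 89, 48 and 47 regions).

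HP1b mostly stood with WOC and HP1c, on the Het contigs as elsewhere. Of the 218 regions with HP1b, 209 held WOC (95.9%) and 207 held HP1c (94.95%). On chromosome 4 the shares were 89.1% and 95.2% of 147, and on the large arms 90.7% and 89.7% of 1091. In the 130 Het regions without HP1b the shares were 63.8% for WOC and 59.2% for HP1c. Regions lacking WOC, 56 in number, held HP1c in 29 cases (51.8%) and HP1b in 9 (16.1%), whereas the 292 with WOC held HP1c in 87.3% and HP1b in 71.6%. These shares come from the same regions and are given as a description, and wider regions meet every list more easily.

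More of the HP1 peaks inside these regions than of those on the large arms were wide, and no such difference was found for WOC over all regions. Peak width was used because the lists of the 4 factors hold no height or score. HP1c peaks had a median width of 478.5 bp in the Het regions (quartiles 392.5 and 666) and 402 bp in the large-arm ROW regions (311 and 555). HP1b peaks had a median of 444 bp on the Het contigs and 390.5 bp on the large arms. On chromosome 4 both were wider than on the Het contigs, with 575 bp for HP1c and 465 bp for HP1b. Of 292 HP1c peaks on the Het contigs, 230 were wider than the median of the whole HP1c list (78.8%, 73.7 to 83.1), against 1124 of 1953 on the large arms (57.6%, 55.3 to 59.7) and 49.8% of all HP1c peaks. The odds ratio was 2.74 (2.04 to 3.67, Fisher's exact test, adjusted p = 2.3532e-12). For HP1b the shares were 67.0% of 221 peaks on the Het contigs and 56.1% of 1104 on the large arms, with 49.9% of all HP1b peaks (odds ratio 1.59, 1.17 to 2.15, Fisher's exact test, adjusted p = 0.00437). Without 3LHet the HP1b odds ratio was 1.37 and no longer passed (exact test, adjusted p = 0.103). For WOC, 56.3% of 302 peaks on the Het contigs and 57.2% of 3502 on the large arms were wider than the list median, which 50% of all WOC peaks exceed (odds ratio 0.965, 0.761 to 1.22, Fisher's exact test, adjusted p = 0.809). Split by H3K4me3, the WOC medians were higher on the Het contigs in both classes. They were 610 bp against 493 bp on the large arms where the mark was present and 434 bp against 405.5 bp where it was absent. The HP1c medians were 482.5 bp against 377.5 bp with the mark and 478.5 bp against 424 bp without it. For HP1b they were 394 bp against 363 bp and 448 bp against 414 bp. Within each class the higher medians were thus not particular to the HP1 proteins. The medians of these classes were not tested.

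ROW peaks were narrower, at a median of 391 bp on the Het contigs (quartiles 311 and 555) and 452 bp on the large arms (331 and 630). Split by H3K4me3, this did not hold on either side. Where the mark was absent the medians were 369 bp on the Het contigs and 368.5 bp on the large arms. Where it was present they were 854 bp on the Het contigs and 553 bp on the large arms. The share of marked regions was also smaller on the Het contigs. A wide ROW peak meets a mark more easily, so the split is not independent of width. Whether the share of marked regions accounts for the lower overall median was not tested. Since ROW peaks chose the regions, these widths are a description.

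The order of widths within a site followed the mark too. Among the 188 Het regions with 1 peak of each of the 4 factors, HP1c was the widest in 68 (36.2%), WOC in 46, ROW in 37 and HP1b in 37. On the large arms ROW was the widest in 343 of 862 (39.8%) and HP1c in 237 (27.5%). In the 28 Het regions of this kind with H3K4me3, ROW was the widest in 20 (71.4%, 52.9 to 84.7), close to the 238 of 328 on the large arms (72.6%, 67.5 to 77.1). In the 160 without the mark, ROW was the widest in 17 (10.6%, 6.74 to 16.4), against 105 of 534 on the large arms (19.7%, 16.5 to 23.2), and HP1c was the widest in 66 on the Het contigs (41.3%) and 208 on the large arms (39.0%). The peaks were nearly concentric in both sets. On the Het contigs the median distance from the ROW centre was 30.8 bp for the WOC centre, 41 bp for HP1c and 51.5 bp for HP1b, against 32, 49 and 58 bp on the large arms.

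**Figure D3:**
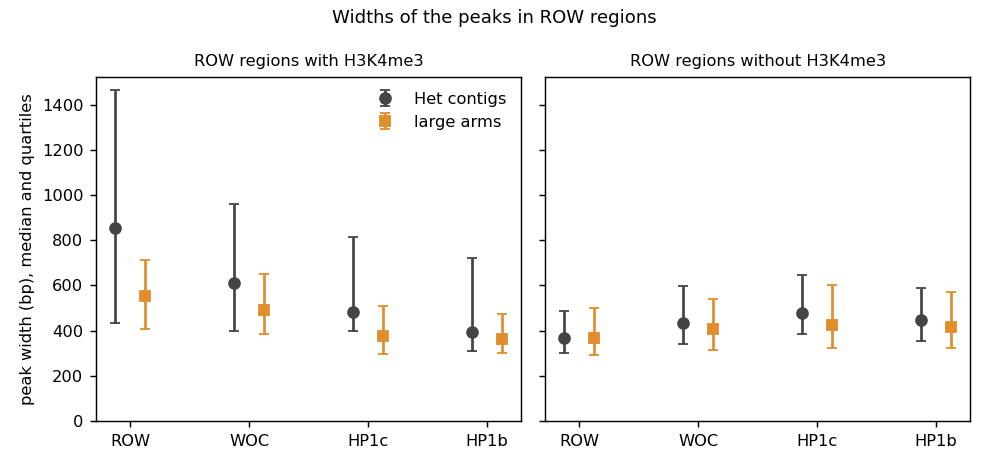
Width of the ROW, WOC, HP1c and HP1b peaks (bp) in ROW regions of the Het contigs and the large arms, with H3K4me3 (left) and without it (right); points are medians and bars run between the quartiles. Without the mark the ROW medians are 369 and 368.5 bp, and with it 854 and 553 bp.

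H3K4me3 was rare at these sites. It overlapped 59 of the 348 regions (17.0%, 13.4 to 21.3), against 2384 of 4715 ROW regions of the large arms (50.6%, 49.1 to 52.0) and 47.7% over all contigs (odds ratio 0.200, 0.150 to 0.266, Fisher's exact test, adjusted p = 6.701e-36). The difference was smaller when the overlap had to reach 0.5 of the shorter peak, with 40 of 348 Het regions and 910 of 4718 large-arm regions (odds ratio 0.543, 0.388 to 0.761, exact test, adjusted p = 0.000355). Chromosome 4 had 69 of 204 (33.8%, 27.7 to 40.6), and the Het contigs were lower (odds ratio 0.399, 0.267 to 0.598, Fisher's exact test, adjusted p = 1.712e-05). The comparison with chromosome 4 did not pass when only wide factor peaks and H3K4me3 peaks of high fold enrichment were kept (odds ratio 0.635, adjusted p = 0.166, exact test). It also did not pass among ROW peaks no wider than the list median (0.465, adjusted p = 0.0934, exact test).

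On the Het contigs themselves the mark went with ROW. Over all contigs it did too. Of the 2673 marked regions 2512 held ROW, which was present in 5268 of all 7897 regions. The shares marked were 47.7% of the ROW regions and 33.8% of all regions, which include the ROW regions. Whether the link differed between the Het contigs and the rest was not tested. Of the 438 Het regions without ROW, 8 carried it (1.83%, 0.928 to 3.56), against 59 of 348 with ROW, and 33.8% of all 7897 regions did (odds ratio 10.97, 5.17 to 23.3, Fisher's exact test, adjusted p = 2.749e-14). Regions with ROW were wider (median 565 bp) than those without (365 bp), and a wide region meets a peak more easily. Among regions no wider than 433 bp, the median of all Het regions, 9 of 95 with ROW and 8 of 299 without ROW were marked (odds ratio 3.81, 1.43 to 10.2, Fisher's exact test, adjusted p = 0.0193). This split was chosen after seeing the data. Among the wider ones 50 of 253 with ROW and 0 of 139 without ROW were marked. By the rule of 3 (3 of 139, not a Wilson limit) this allows a share of up to 2.16% in the set without ROW. Seen from the mark, 51 of the 63 H3K4me3 peaks of the Het contigs touched a ROW region. Another 4 touched only a region without ROW, and 8 touched none. In the whole list of 6170 H3K4me3 peaks, 2743 touched ROW regions of the large arms and 74 those of chromosome 4.

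The shares of both HP1 proteins were close at marked and unmarked sites of the Het contigs. HP1c was present in 49 of 59 regions with the mark (83.1%, 71.5 to 90.5) and 235 of 289 without it (81.3%, 76.4 to 85.4), and HP1b in 38 of 59 (64.4%) and 180 of 289 (62.3%). Chromosome 4 was similar, with HP1c in 85.5% of marked and 85.2% of unmarked ROW regions and HP1b in 73.9% and 71.1%. On the large arms HP1c was present in 35.4% of marked and 46.7% of unmarked ROW regions, and HP1b in 16.7% and 29.7%. The excess of HP1c on the Het contigs over the large arms was accordingly an odds ratio of 8.96 (4.51 to 17.8) among marked regions and 4.96 (3.65 to 6.75) among unmarked ones. For HP1b the values were 9.03 (5.24 to 15.6) and 3.90 (3.03 to 5.03). All of these odds ratios passed the exact test, and the difference between marked and unmarked regions was not tested.

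The H3K4me3 peaks at the Het ROW regions had a median of 5.03 in the authors' fold enrichment over 51 peaks (quartiles 2.38 and 6.46) and a median width of 937 bp. At chromosome 4 ROW regions both were higher, with a median fold of 5.63 and a width of 1345.5 bp (74 peaks). The 12 H3K4me3 peaks of these contigs at no ROW region had a median fold of 2.18 and a width of 730.5 bp. Those at ROW regions of the large arms had a median fold of 4.10 and a width of 680 bp (2743 peaks), and the whole list had a median fold of 3.57. Fold and q-value here are the authors' own values per peak and serve only to describe peaks within that list.

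The mark ran out over 1 edge of the factor site at 38 of the 59 marked regions, lay wholly inside it at 15 and enclosed it at 6. Of the 39 whose H3K4me3 peak was above the list's median fold, 32 had it over 1 edge (82.1%, 67.3 to 91.0), 2 enclosed the whole mark and 5 lay inside it. Their median width was 1147 bp, that of their marks 1455 bp, and the ROW centre lay a median of 636 bp from the nearest summit. Of the 20 with a lower fold, 13 enclosed the whole H3K4me3 peak (65%, 43.3 to 81.9), 6 had it over 1 edge and 1 lay inside it. Their median width was 508.5 bp, that of their marks 360.5 bp, and the ROW centre lay a median of 95.3 bp from the summit. All 4 factors were present in 20 of the 39 (51.3%, 36.2 to 66.1) and in 15 of the 20 (75%, 53.1 to 88.8). The 8 marks that touched 2 or more regions all had a fold above that median and count once for each region. Shares, intervals and mark widths of the high-fold class thus include repeated marks, which necessarily run past an edge. This division by fold was chosen after seeing the data.

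Of the 51 H3K4me3 peaks at ROW regions, 8 touched 2 or 3 of them. On 2RHet the 3942 bp mark at 3176365 to 3180306 (fold enrichment 6.95) met 3 ROW regions. The first, at 3176645 to 3177101, had WOC and HP1c, the second, at 3177313 to 3177783, had HP1c, and the third, at 3178752 to 3180583, had WOC, HP1c and HP1b. The mark of highest fold on these contigs (8.36), on 3RHet at 1806163 to 1808622, met 2 regions with all 4 factors, at 1806497 to 1807643 and at 1807983 to 1811722. On 2RHet at 1334527 to 1336100 a mark of fold 7.95 ended in a region with all 4 factors on its left (1334238 to 1334735) and reached into one with ROW, WOC and HP1c on its right (1335341 to 1337580). Other marks of high fold had a ROW region on 1 side. Those on 3LHet at 2243526 to 2244718 (7.10) and on 2RHet at 2775772 to 2777054 (7.10) each overlapped the end of a region of 954 and 1003 bp.

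**Figure D4:**
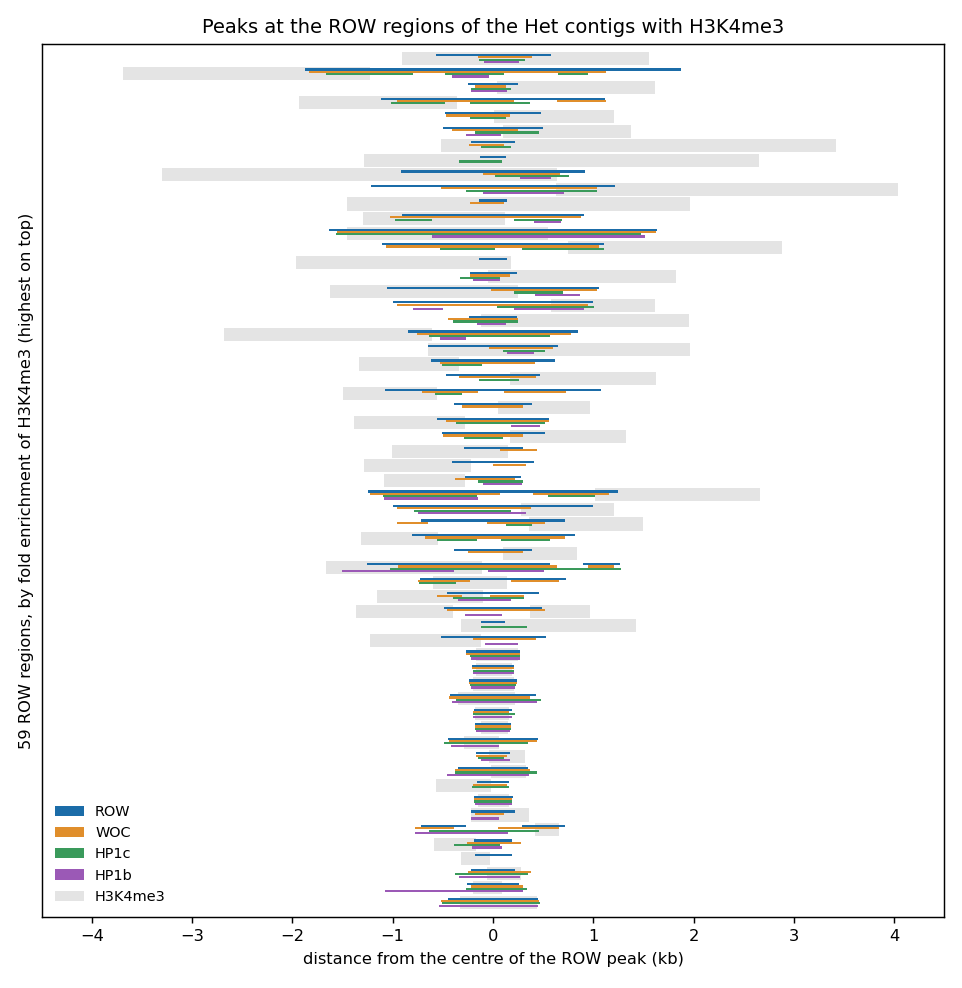
Peaks of each factor and of H3K4me3 (grey) at the 59 marked ROW regions of the Het contigs, 1 row per region, as distance from the centre of the ROW peak (kb), sorted by the fold enrichment of H3K4me3. The upper rows, of high fold, mostly have the mark running out to 1 side, and in the lower rows it mostly lies inside the factor peaks.

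At a few sites the peaks of the 4 factors had nearly the same edges. In 5 of the 188 Het regions with 1 peak of each factor (2.66%, 1.14 to 6.07) the 4 starts and the 4 ends agreed within 25 bp, against 2 of 862 on the large arms (0.232%) and 1 of 90 on chromosome 4. The closest match was the single region of YHet, which belongs to the Y chromosome. Its ROW peak measured 416 bp, its WOC peak 413 bp, its HP1c peak 411 bp and its HP1b peak 406 bp, at 66071 to 66486. Next came the 3RHet regions at 1119151 to 1119538, 2430922 to 2431288 and 2383436 to 2383911, and the 2RHet region at 75313 to 75981.

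All of these but the one on 2RHet also enclosed an H3K4me3 peak, and their marks had a high -log10 q-value for a low fold enrichment. On YHet the fold was 2.997 and the -log10 q 243, where peaks of the list within 0.25 of that fold had a median of 21.5. At the 3RHet regions the fold was 2.02, 2.29 and 2.70 and the -log10 q 120, 44.3 and 85.9, where peaks of like fold had medians of 7.74, 10.2 and 16.4. A further such mark lay inside the 3LHet region at 1734821 to 1735361 (fold 3.01, -log10 q 218). The region of matching edges on chromosome 4 also met such a mark (fold 2.50, -log10 q 357), so this is not particular to the Het contigs. The 2 regions of matching edges on the large arms met none. Without the regions of matching edges 55 of 343 Het regions were marked, and the odds ratio against the large arms was 0.187. HP1c then had an odds ratio of 6.29 and HP1b one of 5.45. The sources used here do not give how reads matching several repeat copies were treated, and their part in these sites was not tested.

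**Figure D5:**
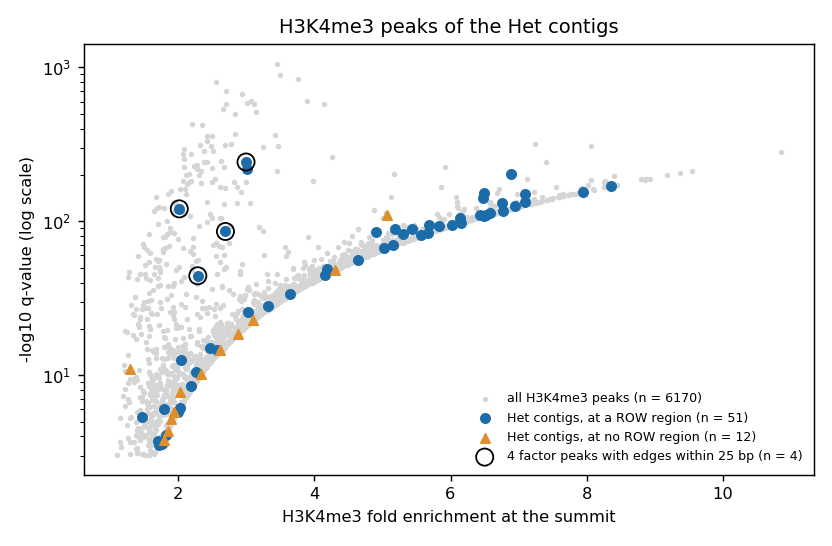
Fold enrichment at the summit (x) and -log10 q-value (y, log scale) of the H3K4me3 peaks, all in grey and those of the Het contigs in colour, by whether they touch a ROW region. The 4 circled peaks, at sites where all 4 factor peaks share their edges, lie above the band that holds most peaks, with -log10 q from 44.3 to 243.

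All 5 of the widest regions held every factor and met an H3K4me3 peak. The region of 3740 bp on 3RHet at 1807983 to 1811722 was 1 continuous ROW peak. It held a WOC peak of 2957 bp, HP1c peaks of 862, 584 and 297 bp and an HP1b peak of 368 bp. On 3LHet at 1394606 to 1397882 all 4 peaks were long, with the ROW peak at 3277 bp, WOC at 3179 bp, HP1c at 3036 bp and HP1b at 2125 bp, and a mark of fold 6.76 lay inside. The 2RHet region at 76845 to 79632 was built of 7 peaks, with ROW and WOC each in 2 pieces, HP1c as 1 peak of 2304 bp and HP1b in 2 pieces. On 3LHet at 2395475 to 2397965 a ROW peak of 2491 bp spanned 2 WOC and 2 HP1c peaks. On 2RHet at 196650 to 199081 the ROW peak of 2432 bp enclosed WOC (1551 bp), HP1c (1305 bp) and HP1b (806 bp), each shorter than the one before. On 2LHet the widest region (31683 to 33790) had the same order, with 2108, 1052, 488 and 451 bp.

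At several named sites without a mark an HP1 peak was longer than the ROW peak. On XHet at 192030 to 193249 an HP1c peak of 1220 bp covered a ROW peak of 298 bp, an HP1b peak of 297 bp and 2 WOC peaks. On 2RHet at 103502 to 105437 HP1b covered 1928 bp, against ROW peaks of 443 and 344 bp. Some marked named sites had a longer HP1 peak too, as on 2RHet at 3177313 to 3177783 (HP1c 426 bp, ROW 265 bp). Among partial combinations the widest held ROW, WOC and HP1c, at 2240 bp (2RHet, 1335341 to 1337580). The widest ROW region with no other factor measured 464 bp (3LHet, 702982 to 703445), the widest with ROW and HP1c 577 bp (3LHet, 979263 to 979839), and the widest with ROW and HP1b 365 bp (2RHet, 1001728 to 1002092). ROW with WOC reached 1185 bp on 3RHet at 1424038 to 1425222. The widest with ROW and both HP1 proteins measured 527 bp (2RHet, 128662 to 129188), and the widest with ROW, WOC and HP1b 1047 bp (2RHet, 1621287 to 1622333).

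By the largest overlap of ROW with another factor, few regions lay near the limit of the overlap that joins peaks into regions. This overlap sets which factors a region holds, while any Het region with a ROW peak was selected. Taking in each region the largest overlap of ROW with another factor, the smallest was 31 bp with HP1c on 2RHet (2064830 to 2065345). The next were 172 and 176 bp. Overlaps of ROW with each single factor were not ranked, and some were smaller than 172 bp. Of the Het regions without ROW, the nearest to a ROW peak lay 145 bp away on 3LHet (1608006 to 1608327, WOC and HP1c), and the next 194 and 220 bp.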

How the data were processed

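Members, comparisons and tests were chosen with earlier results of these data known. Per the submitters' processing notes, dm3, Bowtie2, SAMtools, MACS2 and deepTools were used; the sources used here do not give versions, thresholds or the way replicates were combined. For each antibody 1 list of peak positions was deposited. For H3K4me3 the authors also deposited the fold enrichment at the summit (a ratio), the -log10 p-value and -log10 q-value, and a score, 10 times the -log10 q cut to a whole number; the lowest -log10 q was 3.02. Peak names in that list name IgG as the control.

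Peaks overlapping by 1 bp or more were merged, and H3K4me3 was assigned to regions by the same overlap. Shares carry 95% Wilson intervals. The 14 comparisons used Fisher's exact test, two-sided, with Woolf intervals for odds ratios and Benjamini-Hochberg adjustment over the 14, at a threshold of 0.05; each alternative was adjusted over its own set of tests. Regions are not independent replicates, and tests between them are approximate. Named regions were the 5 widest, the widest per contig and per combination, up to 10 marked regions by fold, the 3 with most peaks, and those nearest the limit of the rule. Those with matching edges and the H3K4me3 peaks shown beside them, with their values, were named after their values were seen. Merging was checked on simulated peaks and against bedtools. Genes and sequences at these positions were not analysed here. Coordinates are 1-based dm3. Python 3.11.15, NumPy 2.4.6, SciPy 1.17.1 and matplotlib 3.10.9 were used.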

Additional observations from a re-analysis of the deposited data

How the results depend on the processing

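No paired analysis was possible because no list carries replicate numbers: the replicates of an antibody share 1 list, so none could be left out either. Of 183 alternatives, 162 changed neither direction nor call, including each one run for HP1c, HP1b, all 4 factors and H3K4me3 against the large arms, for the mark with and without ROW, and for HP1c width. Their odds ratios ranged from 4.96 to 12.6 for HP1c, 3.90 to 9.03 for HP1b, 4.23 to 8.48 for all 4 factors and 0.168 to 0.543 for H3K4me3. Of the 183 alternatives, 52 used a setting chosen after seeing the data.

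Against chromosome 4, HP1b lost its call when peaks had to share 0.5 of the shorter one (odds ratio 0.701), with each ROW peak as unit (0.678), with wide peaks and marks of high fold (0.692), without 3LHet (0.776), without 3RHet (0.683), and within marked (0.639) and unmarked regions (0.671). H3K4me3 lost it with wide peaks and marks of high fold (0.635). With those peaks WOC (0.827) and HP1c (1.04) changed direction, uncalled before and after. Among ROW peaks up to the median width HP1c (1.13), HP1b (1.16) and all 4 factors (1.79) changed direction, none called, WOC gained a call (1.98) and H3K4me3 lost it (0.465). All 4 factors turned to 1.002 among unmarked regions. Against the large arms, WOC lost its call among wide ROW peaks (2.64) and marked regions (2.75). WOC width turned with the upper quartile as limit (1.22) and without 3LHet (1.02), never called, and HP1b width lost its call without 3LHet (1.37). Subsets hold fewer regions; otherwise the cause was not tested. Depth is unknown, and a site without a peak in a list may still be bound.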

Other observations

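The ROW regions of the Het contigs were spaced a median of 12799 bp apart (342 gaps, quartiles 3565 and 31493), against 8766 bp on the large arms and 2501 bp on chromosome 4. Gaps under 5 kb made up 110 of the 342, against 1682 of 4710 on the large arms and 135 of 203 on chromosome 4. Joined over such gaps, 173 of the Het ROW regions stood alone, 86 formed pairs, and 89 lay in 22 groups of 3 or more. The group with most members, on 2RHet at 74135 to 88943, included the 2RHet regions at 75313 and 76845 and held 7 regions in 14809 bp, 6 of them with all 4 factors and 1 with H3K4me3. A group of 6 on 2LHet at 30829 to 49517 held 5 with all 4 factors and 3 with the mark, and one on 2RHet at 469382 to 482323 held 5 with all 4 factors and 2 with the mark. Regions without ROW lay among them: for 158 of 347 ROW regions the nearest was under 5 kb away, at a median of 5866 bp over all. YHet held no region without ROW and was left out of that count. The spacing depends on how complete the assembly of each contig is, which was not tested.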
